A study of Mus musculus with 5 samples.

Results

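The nuclear genes of the mitochondrial respiratory chain were followed in mouse embryonic stem cells (ESCs) as these differentiated into spinal motor neurons (MNs). The set comprised every gene with a mouse probe on the array whose symbol began with Nduf (complex I), Uqcr (complex III) or Atp5 (ATP synthase), the succinate dehydrogenase genes Sdha, Sdhb, Sdhc and Sdhd (complex II), and the Cox4 to Cox8 subunits of cytochrome c oxidase (complex IV). This gave 93 genes, with 124 probes, of 19897 genes with a matched probe. The rule used gene names but no measured value, although it was made with earlier results of these data known. Each gene was represented by the probe with the highest mean signal.

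The study followed gene expression from wild-type ESCs to MNs, with 1 single-colour array at each of 5 time points. All cells were labelled male, and the labels do not name the ESC line. The samples were undifferentiated ESCs (ES), embryoid bodies (EBs) after 8 h of retinoic acid (RA; Day2), EBs after 1 day (Day3) and 2 days (Day4) of RA, and cells labelled MN after 5 days of RA (Day7), which the tissue label still calls EBs. RA was given from day 2 to day 5 with a Sonic hedgehog signal (Shh in the labels, the agonist SAG in the study's methods), so Day2, Day3, Day4 and Day7 all received both agents and ES received neither. The protocol and the Day7 label disagree, since the label gives 5 days of RA and the protocol ends it at day 5. No replicate array, untreated EB or purified MN sample was among the arrays, and no difference could therefore be tested against a spread between cultures.

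The respiratory chain passes electrons from NADH and succinate to oxygen and pumps protons across the inner mitochondrial membrane, and ATP synthase uses the returning protons to make ATP. Most subunits are encoded in the nucleus, while a core of complexes I, III and IV and of ATP synthase is encoded in mitochondrial DNA. Pluripotent cells are known for a high rate of glycolysis and neurons for their reliance on oxidative phosphorylation. No probe could be matched to any of the 13 mitochondrially encoded genes, so the values below are those of the nuclear genes alone.

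Values are log2 fluorescence signals, quantile-normalized over the 5 arrays, and a difference of 1 is a 2-fold change. Levels of different genes cannot be compared, because each probe binds with its own strength. The scanner's flag for a signal well above background was met by 57.5% to 65.7% of mouse probes on ES, Day3, Day4 and Day7 but by 86.7% on Day2, and spots of the same probe on an array differed by a median SD of 0.06 to 0.11. Day7 lay on a slide of its own and had its own scan, while the other arrays shared both, so a slide effect cannot be told apart from time in any value that involves Day7. The samples followed their labels in the main: 7 of 8 pluripotency genes were at least 2-fold lower on Day7 than on ES (median change -3.63), and all 7 MN genes with a probe (median 6.06) and 7 of 8 pan-neuronal genes (median 5.35) were at least 2-fold higher. Of 4 floor plate genes, 3 were at least 2-fold higher as well (Foxa2, Shh and Foxj1), and Lmx1a differed by -0.41. In a sample of mixed cells, fewer cells of a type and less RNA per cell cannot be told apart.

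Most of the 93 genes gave a strong and, after quantile normalization, even signal throughout. In all, 91 passed the flag on each of the 5 arrays, and their signal varied little: the median range, highest minus lowest array, was 0.68, against 1.35 for the 13468 genes well above background on all 5 arrays. The range was under 1 for 76 of the 91 genes, compared with 33.1% of all 13468 genes, and under 2 for 89, compared with 71.6%. Genes with a mean signal of 14 or more varied less than the rest (median range 0.79), so the same comparison was made among them. Of these 1231 genes, 65 were respiratory chain genes, and a range under 1 was seen for 61 of the 65 (93.8%) and for 62.1% of the 1231. When arrays were instead aligned at their 75th percentile, the median ranges were 0.77 for the set and 1.39 for all genes, and a range under 1 was seen for 52 of the 65 bright genes of the set (80.0%) and for 42.7% of the 1231. Without any normalization, where the brightness of the arrays themselves differs, the median ranges were 1.66 and 1.83, but a range under 1 was seen for only 3.30% of the set and 8.78% of all genes, and the bright genes of the set were then no more even than bright genes as a whole (median range 1.62 and 1.60, under 1 in 1.54% and 11.5%).

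**Figure D1:**
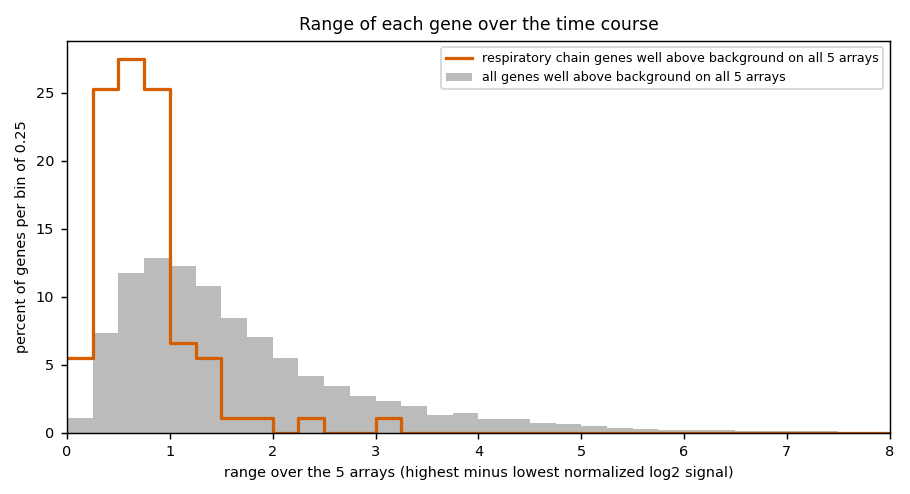
Range of each gene over the time course, as the highest minus the lowest normalized log2 signal (x axis, bins of 0.25), against the percent of genes in each bin (y axis). The orange line, for the 91 respiratory chain genes, lies to the left of the grey bars, for all 13468 genes, with median ranges of 0.68 and 1.35.

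After quantile normalization the most even genes were Atp5b, the catalytic beta subunit of ATP synthase, with a range of 0.17, then Ndufv1, Cox7a2l, Ndufv2 and Ndufaf7. The signal of Atp5b was 17.27 on ES, 17.34, 17.17 and 17.25 on Day2, Day3 and Day4, and 17.32 on Day7. This order depended on the scaling: with the 75th percentile shift the range of Atp5b was 1.05, with a change of -1.05 from ES to Day7, and the range was smallest for Ndufs5 (0.13) and Ndufa2 (0.16), both accessory subunits of complex I. At the other end, with quantile normalization, stood Ndufa4l2, with a range of 3.11, then Ndufaf5 (2.34), Cox6b2 (1.92), Ndufaf6 (1.68), Cox8c (1.45) and Cox4i2 (1.32). None of these 6 genes is a core subunit: they are assembly factors, or tissue isoforms and relatives of complex IV subunits.

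Counted by their highest array, 49 of the 91 genes peaked on Day7, 18 on ES, 14 on Day2, 5 on Day3 and 5 on Day4. The lowest array was ES for 27, Day4 for 24, Day3 for 19, Day7 for 16 and Day2 for 5. Many genes thus had a shallow dip on Day3 or Day4 and a higher value on Day7, as in the heat map of the set. These counts depended on the scaling as well, since with the 75th percentile shift 65 of the 91 genes were highest on ES and 4 on Day7, and the lowest array was Day7 for 41 and Day4 for 34.

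**Figure D2:**
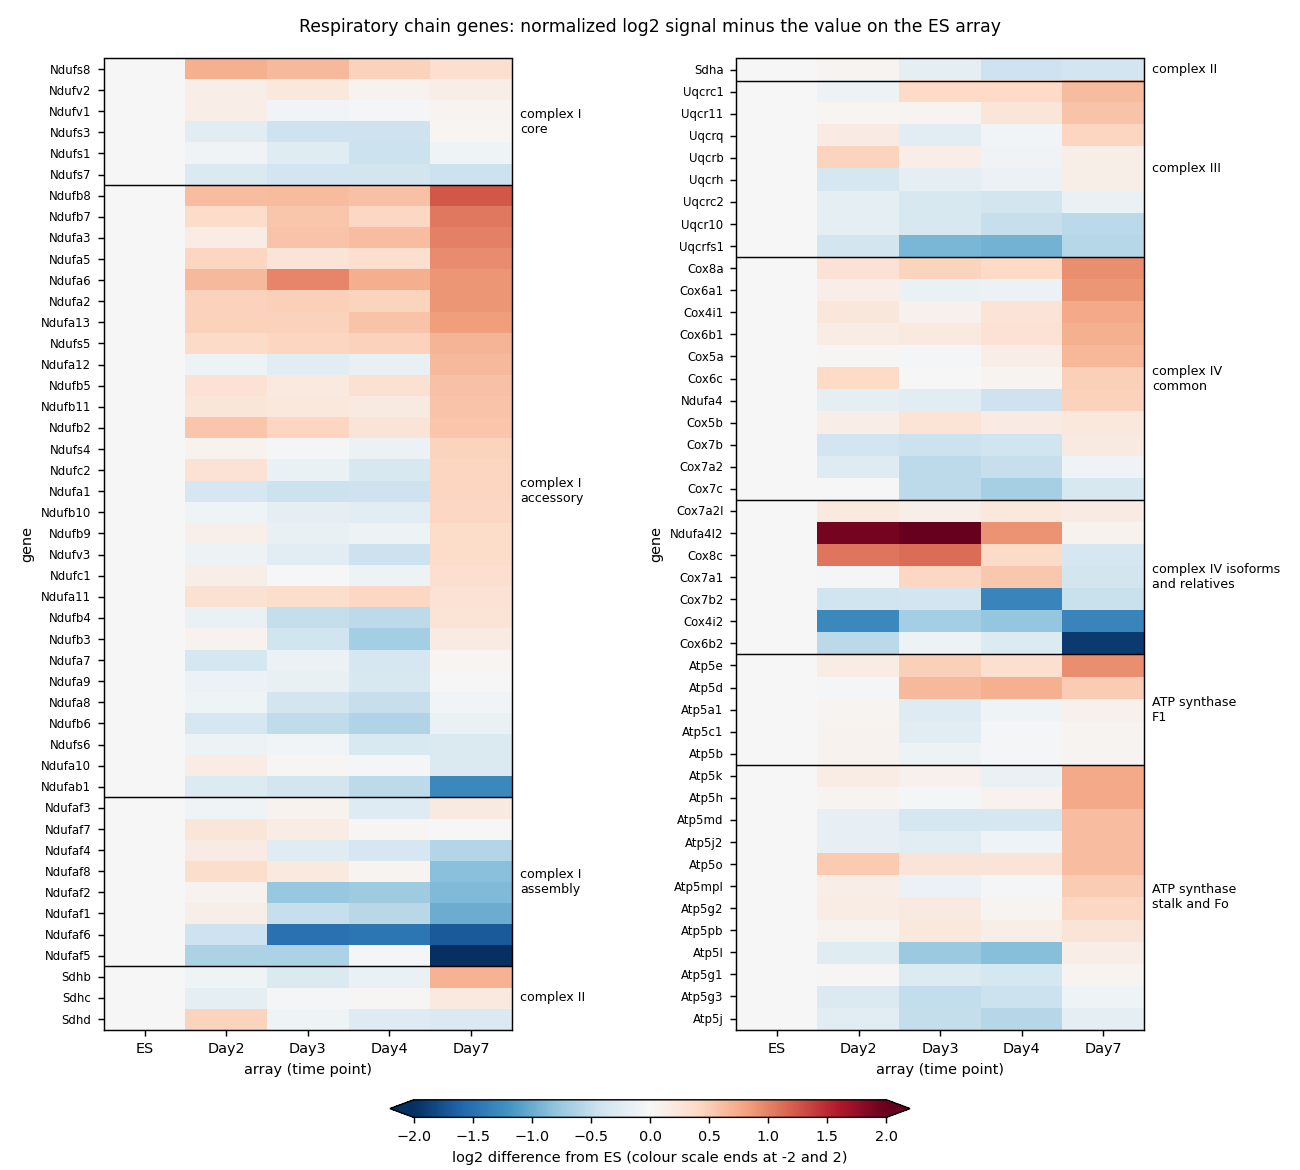
Normalized log2 signal of 90 of the 91 genes minus its value on the ES array (colour, from -2 to 2), with genes in rows by complex and role and the 5 arrays in columns. Accessory subunits of complex I and common subunits of complex IV are mostly red on Day7, assembly factors and complex IV isoforms mostly blue, and Ndufa4l2 is dark red on Day2 and Day3 alone.

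In the first interval, from ES to Day2, few genes moved. Ndufa4l2 and Cox8c were at least 2-fold higher, 2 of 93 genes, where 10.7% of all genes with a value were, and Cox4i2 was at least 2-fold lower, 1 of 93 against 11.3%. From Day2 to Day3, Ndufa4l2 again was at least 2-fold higher (1 of 93, background 13.0%) and Ndufaf6 was lower (1 of 93, background 7.76%). From Day3 to Day4 none of the 92 genes with a value was at least 2-fold higher (background 3.62%), and Ndufa4l2 alone was lower (background 4.87%). Some of these calls depended on the scaling. With the 75th percentile shift Ndufaf6 was under 2-fold from Day2 to Day3 (-0.97), and Cox7b2 was the 1 gene lower (-1.06, background 17.0%). Without normalization 27 of 93 genes were lower over that interval (background 39.4%) and none higher (background 1.41%), and Cox4i2 was under 2-fold from ES to Day2 (-0.85).

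After quantile normalization the set as a whole hardly moved over these intervals. The median change of the genes, relative to the median of all genes, was 0.06 in the first interval, -0.10 in the second and -0.03 in the third. The first of these values turned to -0.33 when each array was shifted to its 75th percentile instead. Relative to genes with a mean signal of 14 or more, the change of the 65 bright respiratory chain genes from ES to Day2 was 0.03 with either scaling.

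In the last interval, from Day4 to Day7, most genes of the set had a slightly higher signal after quantile normalization. The median change was 0.34, or 0.47 relative to all genes, and 69 of 92 genes had a higher signal on Day7. The median was 0.00 with the 75th percentile shift, and 46 of the 92 were higher. The 5 scalings compared were quantile normalization, normexp before it, the 75th percentile shift, no normalization and the log2 table of the authors. The last 3 differ almost wholly by a constant for each array, so values relative to other genes are nearly the same in them by construction, and such values rest on 3 distinct settings. Relative to all genes the median stayed above 0 with each of these scalings (0.25 to 0.47), and 62 genes lay above and 14 below the median of all genes in every one of them. The difference was larger among bright genes: the 65 respiratory chain genes lay 0.53 to 0.59 above the 1231 bright genes with the 5 scalings. After quantile normalization only Cox6a1 was at least 2-fold higher (1 of 92, background 18.1%), while 3 of 92, Cox6b2 and Ndufaf5 among them, were at least 2-fold lower (background 18.1%). No gene was at least 2-fold higher with the 75th percentile shift (Cox6a1 0.39, background 16.6%), and 71 of 92 were without normalization (background 52.1%).

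The change from Day4 to Day7 was not even across roles. All 11 common subunits of complex IV (median 0.48), all 12 genes of the stalk and membrane part of ATP synthase (0.48) and 26 of 29 accessory subunits of complex I (0.45) had a higher signal on Day7. The core subunits of complex I (0.06), complex II (0.10) and the F1 head of ATP synthase (0.10) had smaller medians. A lower signal was seen for 7 of 8 assembly factors of complex I (median -0.24) and 7 of the 8 complex IV isoforms with a value (-0.77), where the median of all genes was -0.12. With normexp the isoform median was -0.44. The isoforms were not set against genes of like brightness, and the change of Cox6a2 is a bound. The value of the assembly factors was near that of the 7184 genes of like brightness (-0.21). The 75th percentile shift gave medians of 0.03 for the common subunits of complex IV (7 of 11 higher), 0.14 for the stalk and membrane part (8 of 12), 0.14 for the accessory subunits (21 of 29) and -0.22 for the core of complex I, while assembly factors (-0.29) and complex IV isoforms (-0.93) again had 7 of 8 genes lower.

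Between the ends of the time course, ES and Day7, 3 of 92 genes were at least 2-fold higher (Ndufa3, Ndufb7 and Ndufb8; background 24.8%) and 5 were at least 2-fold lower (Cox4i2, Cox6b2, Ndufab1, Ndufaf5 and Ndufaf6; background 24.4%). Together 8.70% of the set changed 2-fold, against 49.2% of all genes with a value and 45.5% of the genes well above background on all arrays. At 1.5-fold, 23 genes were higher (background 33.0%) and 10 lower (background 35.5%). The counts depended on the scaling: with the 75th percentile shift no gene was at least 2-fold higher (background 22.0%) and 18 were lower (background 32.3%). The median change relative to all genes likewise was 0.24 with quantile normalization and -0.20 with the 75th percentile shift.

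The scalings differed more for bright probes as a class than for all genes. The 1231 genes with a mean signal of 14 or more had a median change of -0.09 after quantile normalization and -0.92 after the 75th percentile shift, where the median of all genes was -0.07 and -0.35. Against these bright genes, the 65 bright respiratory chain genes were higher on Day7 by 0.50 with quantile normalization and by 0.47 with the 75th percentile shift, and the other 3 scalings gave 0.47 to 0.52. This comparison was added after the values had been seen. The changes from ES to Day7 given for single genes and groups below are those after quantile normalization unless another scaling is named, and with the 75th percentile shift 9 of the 92 genes were above 0 and 83 below.

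**Figure D3:**
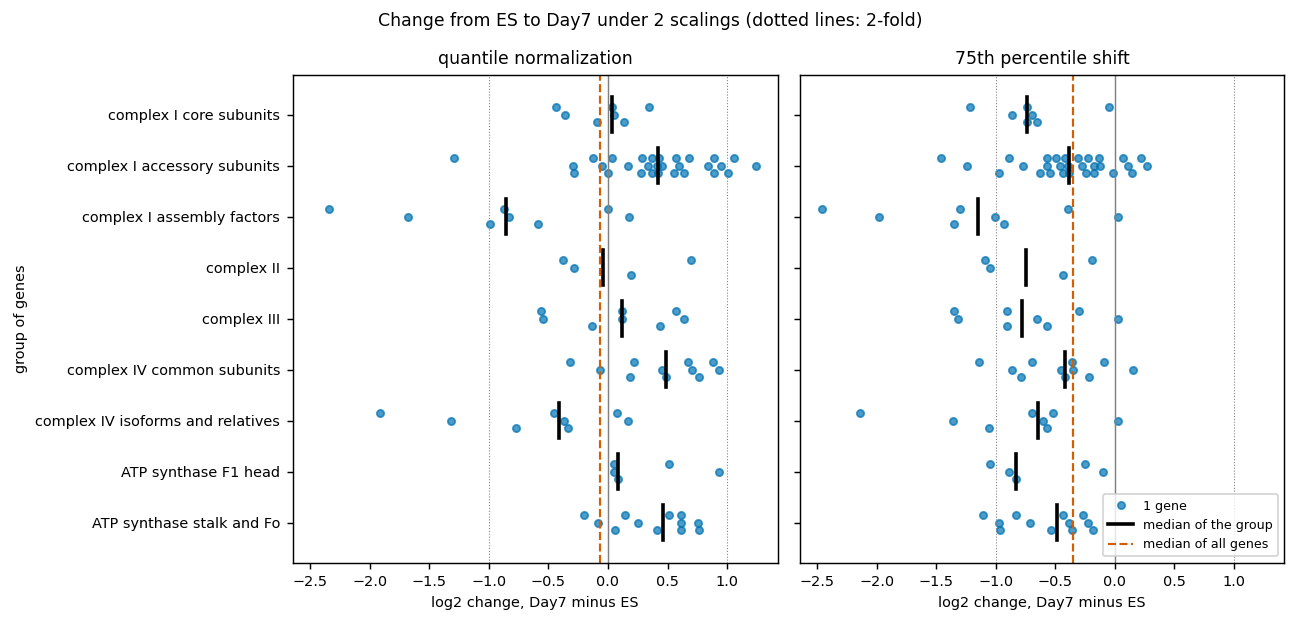
Change of each gene from ES to Day7 (x axis, log2) by role (y axis), after quantile normalization (left) and after the 75th percentile shift (right). Black bars mark the median of each group and the dashed line the median of all genes (-0.07 left, -0.35 right); assembly factors lie lowest in both panels.

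Complex I takes electrons from NADH. Its 7 nuclear-encoded core subunits, which carry the flavin and the iron-sulphur clusters, had a median change of 0.03 from ES to Day7 (-0.74 with the 75th percentile shift), between -0.43 for Ndufs7 and 0.34 for Ndufs8. Ndufv1 and Ndufv2, which form the NADH-binding end, differed by 0.05 and 0.13.

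The 29 accessory subunits of complex I, which surround the core, had a median change of 0.42 from ES to Day7, and 23 of the 29 were higher. The median was -0.38 with the 75th percentile shift, and 5 of the 29 were higher. The signal of Ndufb8, in the membrane arm, was 15.04 on ES, 15.66, 15.67 and 15.63 on Day2, Day3 and Day4, and 16.28 on Day7, which made it 2.36-fold higher on Day7 than on ES. Ndufb7 ran from 14.95 on ES through 15.32, 15.51 and 15.36 to 16.01 on Day7 (2.08-fold), and Ndufa3 from 14.92 through 15.07, 15.50 and 15.55 to 15.93 (2.01-fold). In all 3 genes the ES array was the lowest and the Day7 array the highest. Their change stayed above 0 with the 75th percentile shift but shrank to 0.27, 0.14 and 0.11.

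Ndufab1, the mitochondrial acyl carrier protein, was the only accessory subunit at least 2-fold lower from ES to Day7 after quantile normalization (Ndufs6 was as well with the 75th percentile shift). It also serves fatty acid synthesis in mitochondria. Its signal was 11.43 on ES, 11.15, 11.06 and 10.90 on Day2, Day3 and Day4, and 10.13 on Day7, lower at each time point than at the time point before and 2.46-fold lower at the end. With the other scalings the change from ES to Day7 was between -1.10 and -1.46. The last step depended on the scaling: without normalization all 29 accessory subunits, Ndufab1 among them, were higher on Day7 than on Day4.

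The 8 assembly factors of complex I, which help to build the complex but are absent from the finished enzyme, had the lowest median of any role (-0.85). The signal of Ndufaf5, a methyltransferase-related factor that hydroxylates Ndufs7, was 10.54 on ES, 9.91, 9.91 and 10.52 on Day2, Day3 and Day4, and 8.20 on Day7. Day7 stood apart from the other 4 arrays, and the signal there was 5.08-fold lower than on ES. The second probe of Ndufaf5 was well above background on only 2 arrays and read 4.61 on ES and 5.66 on Day7, so it does not repeat this course.

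Ndufaf6 changed earlier. Its signal was 12.46 on ES, 12.04, 10.97 and 11.01 on Day2, Day3 and Day4, and 10.78 on Day7, so the step lay between Day2 and Day3 and the total was 3.20-fold. Ndufaf2 (13.08, 13.15, 12.32, 12.36 and 12.20 in the order of the arrays) and Ndufaf1 (12.10, 12.21, 11.64, 11.54 and 11.11) also took their largest step between Day2 and Day3. Both lay under a 2-fold change from ES to Day7, but both were at least 2-fold lower with the 75th percentile shift. Ndufaf3 and Ndufaf7 were the exceptions, with changes of 0.17 and 0.00. The 2 probes of Ndufaf4 disagreed, with -0.59 and 0.43.

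Relative to the median of the whole set, assembly factors lay at -1.03 with quantile normalization and at -0.60 with the 75th percentile shift, and accessory subunits at 0.25 and 0.17. Of the 8 assembly factors, 6 were below the set's median in all 5 scalings and none above it in all 5, whereas of the 29 accessory subunits 21 were above it and 7 below it. Assembly factor probes were dimmer, with mean signals between 9 and 13. Set against the 7184 genes in that signal band, the assembly factors were lower by 0.69 to 0.79 from ES to Day7 with the 5 scalings, but by only 0.03 to 0.05 from Day4 to Day7.

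Assembly factors whose names lie outside the set were read for comparison. Of 34 such genes with a value, 3 were at least 2-fold higher from ES to Day7 and 5 lower, both smaller shares than the background of 24.8% and 24.4%, but with the 75th percentile shift none was higher and 12 were lower (background 22.0% and 32.3%). The median with quantile normalization was -0.52, or -0.45 relative to all genes (-0.40 with the 75th percentile shift). Nubpl, which delivers iron-sulphur clusters to complex I, was among the lower genes, with 11.43 on ES and 9.36 on Day7. Bcs1l, which inserts the Rieske protein into complex III, ran from 13.02 to 11.76, and Cox11, a copper chaperone of complex IV, from 12.44 to 11.38. Atpaf2, an assembly factor of the F1 head, ran from 11.61 to 10.55, and the copper chaperone Cox17 went from 6.41 to a signal not well above background. The genes at least 2-fold higher were Cox14 (13.15 to 14.24), Cox19 (11.66 to 13.02) and Coa3 (14.30 to 15.31), all of complex IV, and with the 75th percentile shift their changes were 0.42, 0.97 and 0.20.

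**Figure D4:**
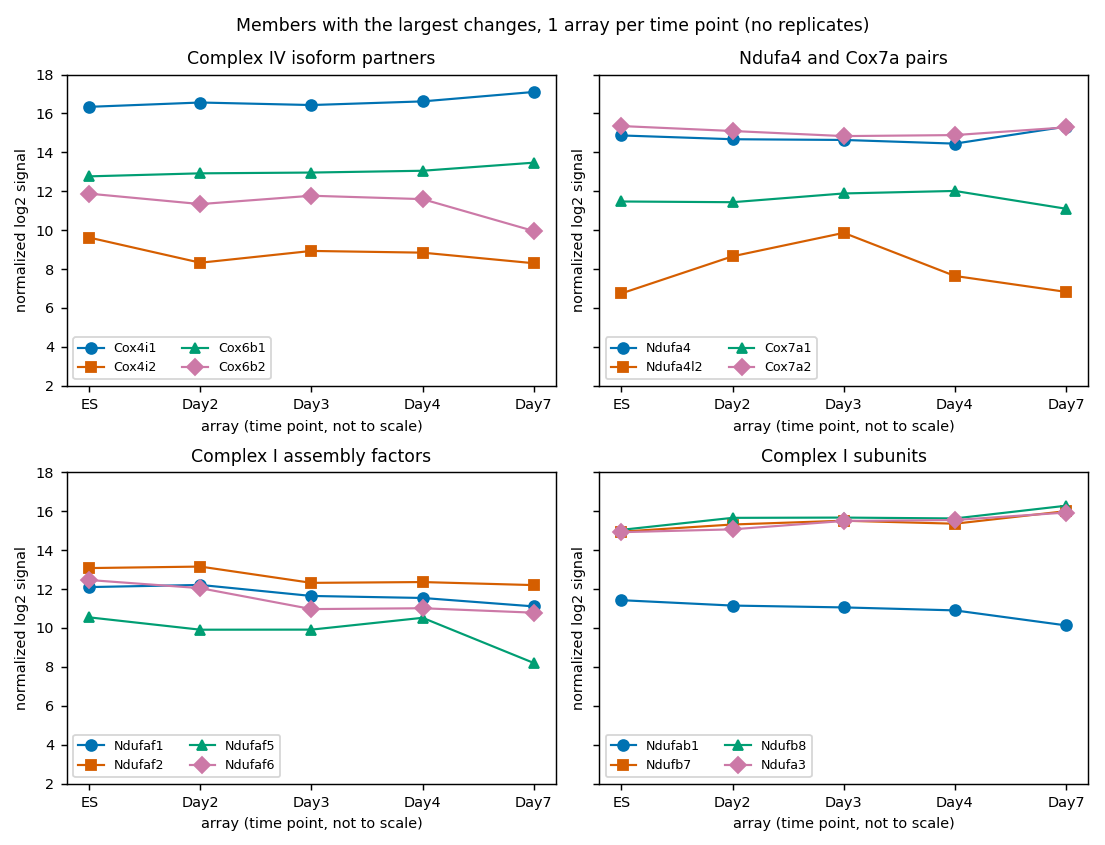
Normalized log2 signal (y axis) of 16 named genes on the 5 arrays (x axis, time points not to scale), 1 array per point and no error bars because there were no replicates. Ndufa4l2 peaks on Day3 at 9.86, Cox6b2 and Ndufaf5 are lowest on Day7, and Cox4i1, Cox6b1, Ndufb7, Ndufb8 and Ndufa3 are highest on Day7; heights of different genes are not comparable.

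Complex II, succinate dehydrogenase, feeds electrons from the citric acid cycle into the chain, and its 4 subunits did not move together after quantile normalization (all 4 were lower on Day7 than on ES with the 75th percentile shift). Sdhb, the iron-sulphur subunit, read 15.17 on ES, 15.09, 14.88 and 15.04 on Day2, Day3 and Day4, and 15.87 on Day7, and was highest on Day7. Sdha, the flavoprotein, read 14.36, 14.42, 14.19, 13.95 and 13.98, and was lower on Day4 and Day7 than before. The membrane anchors differed as well: Sdhd was highest on Day2 (15.30, with 14.85 on ES and 14.57 on Day7), while Sdhc stayed between 13.35 and 13.73. The second probes of Sdhb and Sdhc gave changes of 1.21 and 0.86 from ES to Day7, the same direction as the main probes (0.69 and 0.20).

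Complex III, the cytochrome bc1 complex, passes electrons to cytochrome c. The 8 genes with a Uqcr name had a median change of 0.12 from ES to Day7, between -0.56 for Uqcrfs1, the Rieske iron-sulphur protein, and 0.64 for Uqcrc1, a core protein. None reached 2-fold with quantile normalization. With the 75th percentile shift the median was -0.78, and Uqcrfs1 (-1.32) and Uqcr10 (-1.35) were at least 2-fold lower. Cyc1, the cytochrome c1 subunit, whose name lies outside the set, read 14.91 on ES and 15.21 on Day7, and somatic cytochrome c (Cycs) 15.27 and 15.41. Both differences turned below 0 with the 75th percentile shift. Cyct, the testis form of cytochrome c, was 12.78 on Day2, 11.85 on ES and 10.34 on Day7.

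Complex IV, which reduces oxygen, is the complex whose subunits have tissue-specific forms. The 11 common subunits, counting Ndufa4, which is now assigned to this complex, had a median change of 0.48 from ES to Day7, and 9 were higher (-0.42 and 1 with the 75th percentile shift). Cox8a (0.93), Cox6a1 (0.88), Cox4i1 (0.76) and Cox6b1 (0.70) had the largest changes, of which only that of Cox6b1 stayed above 0 with the 75th percentile shift (0.16). Relative to the median of the set, 7 of the 11 were higher and 2 lower in all 5 scalings. The probes of Cox7c disagreed most of any gene: the brightest changed by -0.32, the next by 0.64, and a dim one by -2.22.

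The partners of subunit 4 differed in direction after quantile normalization. The signal of Cox4i1, the common form of subunit 4, was 16.34 on ES, 16.56, 16.43 and 16.62 on Day2, Day3 and Day4, and 17.10 on Day7. Cox4i2, the form best known from lung, read 9.62, 8.32, 8.93, 8.84 and 8.30 on the same arrays. Its ES value was the highest, the lower value was reached by Day2, and Day7 was 2.50-fold below ES. With the 75th percentile shift the change was -1.36 for Cox4i2 and -0.35 for Cox4i1, both below 0.

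For subunit 6B, the common form Cox6b1 read 12.77 on ES, 12.92, 12.96 and 13.05 on Day2, Day3 and Day4, and 13.47 on Day7. The testis form Cox6b2 read 11.88, 11.34, 11.77, 11.59 and 9.96. The lower value of Cox6b2 thus came in the last interval, and its Day7 signal was 3.78-fold below that on ES. With the other scalings the change was between -1.78 and -2.14.

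The other testis forms of complex IV took other courses. Cox8c was 5.85 on ES, 6.92, 6.97 and 6.24 on Day2, Day3 and Day4, and 5.51 on Day7, high on Day2 and Day3 and lowest on Day7. With normexp background correction its difference from ES to Day2 was 0.45 in place of 1.08, under 2-fold. Cox7b2 was 6.66, 6.26, 6.28, 5.34 and 6.20, lowest on Day4. All 6 germ cell genes read beside them passed the detection flag on every array. From ES to Day2, 2 of them were at least 2-fold higher and none lower (background 10.7% and 11.3%), with a median of 0.28, and Stra8, the meiotic gene induced by RA, went from 9.36 to 16.65. From Day4 to Day7 none was at least 2-fold higher and 3 were lower (background 18.1% for each), and over the whole course 2 of the 6 were at least 2-fold higher and 3 lower. Their part in the values of Cox6b2 and Cox8c was not tested.

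Cox7a1, Cox6a2 and Cox8b are the heart and skeletal muscle forms. Cox7a1 was 11.47 on ES, 11.44, 11.89 and 12.01 on Day2, Day3 and Day4, and 11.10 on Day7. Cox6a2 was 5.66, 5.26, 5.83 and 5.76 on the first 4 arrays and not well above background on Day7, which allows a change from ES of at most -0.77. Cox8b passed the scanner's flag only on Day2, with a signal of 3.30, and has no fold change. Of 8 muscle markers, 4 each were well above background on ES, Day3 and Day7, 5 on Day4 and 7 on Day2, and Ckm on none. The 5 with a value from Day4 to Day7 were all at least 2-fold lower (median -1.75, background 18.1%), though 3 of the 5 were with normexp and 2 without normalization (median -0.57). Over the same interval Cox7a1 differed by -0.91. The part of muscle cells in this value was not tested.

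Ndufa4l2, a relative of Ndufa4 known as a target of hypoxia-inducible factor, had a strong transient. It also had the largest range of the set after quantile normalization, but not without normalization (2.75, with 3.05 for Cox7b2). Its signal was 6.75 on ES, 8.66, 9.86 and 7.64 on Day2, Day3 and Day4, and 6.83 on Day7. Day2 was 3.75-fold above ES, Day3 2.30-fold above Day2, and Day4 4.65-fold below Day3, after which Day7 lay within 0.08 of ES. The direction of these 3 steps was the same with all 5 scalings, between 1.34 and 2.42 for the first, 0.33 or more for the second, and -1.81 and -2.72 for the third. Ndufa4 itself was 14.87, 14.67, 14.64, 14.45 and 15.32, lowest on Day4 and highest on Day7.

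Other targets of hypoxia-inducible factor were read beside it. Of 12 such genes, none was at least 2-fold higher and 5 were lower on Day2 than on ES (background 10.7% and 11.3%), and 2 were higher and 1 lower on Day3 than on Day2 (background 13.0% and 7.76%). Their median signal was 10.3 on ES, 8.89, 8.60 and 8.56 on Day2, Day3 and Day4, and 9.04 on Day7. Slc2a1, a glucose transporter, was highest on Day3 as well (15.63, 15.74, 16.56, 14.98 and 13.23), whereas Pdk1, which restrains pyruvate dehydrogenase, was highest on ES (12.12, 11.83, 9.63, 9.07 and 8.56) and Vegfa highest on Day7 (9.83, 10.71, 11.03, 11.26 and 11.87).

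ATP synthase makes ATP in its F1 head, driven by the proton flow through the membrane part, Fo. The 5 head genes had a median change of 0.09 from ES to Day7, and Atp5b differed by 0.05, Atp5a1 by 0.09 and Atp5c1 by 0.05, though the second probe of Atp5c1 gave -0.72. All 5 were lower with the 75th percentile shift (median -0.83), and Atp5b was at least 2-fold lower (-1.05). Atp5e, the epsilon subunit, had the largest change of the head (0.93). The 12 genes of the stalk and Fo had a median of 0.46, and 10 of the 12 were higher, whereas with the 75th percentile shift the median was -0.48 and all 12 were lower. The largest were Atp5k and Atp5h (both 0.76), and the lowest was Atp5j (-0.20).

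Subunit c, which forms the rotating ring, is made from 3 genes whose mature protein is the same. Atp5g1 read 16.33 on ES, 16.35, 16.05 and 15.97 on Day2, Day3 and Day4, and 16.38 on Day7, and Atp5g3 read 16.81, 16.51, 16.32, 16.38 and 16.72. Both dipped on Day3 and Day4 and returned to their ES level within 0.09. Atp5g2 (17.10, 17.24, 17.28, 17.15 and 17.51) had no dip and was highest on Day7. All 3 were lower on Day7 than on ES with the 75th percentile shift, by at least 2-fold for Atp5g3.

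Where a gene had several probes, these mostly agreed. Of the 23 genes with more than 1 probe well above background on all arrays, 17 had the same sign from ES to Day7 on every such probe, and the probes of a gene spread by a median of 0.27. The disagreeing genes were Atp5c1, Atp5l, Cox7c, Ndufaf4, Ndufb11 and Uqcrb.

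The promoters of these genes were read for the motifs of factors known to act on respiratory genes. A RefSeq promoter, 250 bases before to 50 bases after the gene start in the assembly GRCm38.p6, was at hand for 76 of the 93 genes and for 27025 genes in all, and both strands were searched. The motif GCATGCGC, part of the core bound by nuclear respiratory factor 1 (Nrf1), was held by 12 of the 76 (15.8%) and by 3.05% of all promoters. The motif CCGGAAG of ETS factors such as Gabpa was held by 19 of the 76 and by 9.93% of all, and ACTTCCG, which can overlap it on the other strand, by 12 (15.8%) and by 7.20%. AAGATGG, of YY1, was held by 12 (15.8%) and by 7.28%, TGACGTCA, the cyclic AMP response element, by 4 (5.26%) and by 2.03%, and CACGTG, the E-box, by 6 (7.89%) and by 8.09%. A match is a string of letters and says nothing of binding in these cells.

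Of the 12 genes with the Nrf1 motif, 5 are shown with the bases around it, on the strand of the gene and with the motif in capitals, because they span subunits and assembly factors with values on both sides of 0. The choice was made with these values known and shows nothing about the motif.
Atp5g2, chr15:102671073-102671094, minus strand: cggccgcGCATGCGCagagcct
Cox6a1, chr5:115349104-115349125, minus strand: acggggcGCATGCGCgctctcg
Sdhb, chr4:140961210-140961231, plus strand: ccagtggGCATGCGCcctacgg
Ndufaf4, chr4:24897965-24897986, plus strand: tgtctgcGCATGCGCctgtgcg
Ndufaf5, chr2:140170657-140170678, plus strand: cgttggcGCATGCGCctaatag
The motif starts 19 bases after the gene start in Ndufaf5 and lies before the start in the other 4 genes. From ES to Day7 the change was 0.88 for Cox6a1, 0.69 for Sdhb and 0.41 for Atp5g2, but -0.59 for Ndufaf4 and -2.34 for Ndufaf5. The second probe of Ndufaf4 gave 0.43. With the 75th percentile shift all 5 were below 0 (-0.09 for Cox6a1, -0.19 for Sdhb and -0.71 for Atp5g2).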

How the data were processed

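Total RNA of 5 samples was labelled with Cy3 and hybridized to Agilent mouse expression arrays. The authors deposited, per the file headers, the spot intensity of each array from Agilent Feature Extraction 10.5.1, background-subtracted by that software, with flags for detection, outliers and saturation. The authors' own log2 table was deposited as well. Its values for 99.5% to 99.6% of probes lay within 0.01 of the log2 processed signal minus a constant of the array (column medians -3.55, -2.62, -3.71, -3.53 and -3.66 from ES to Day7) and it served as an alternative. The legend of the study's heat map names a quantile analysis, which was therefore the main normalization.

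Control and outlier spots were left out, log2 intensities were averaged per probe and quantile-normalized with limma 3.58.1 (R 4.3.3). No spot was saturated. Later steps used Python 3.11.15, numpy 2.4.6, pandas 2.3.3 and matplotlib 3.10.9. Accessions in the scanner files were matched to RefSeq symbols of GRCm38.p6, which gave 26300 of 55681 probes a symbol and 19897 genes. The alignment of the array's own design to a genome was not used.

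Where a probe was not well above background on an array, its value was raised to the dimmest signal of any well-detected probe on that array if it lay under this, and the change is a bound. Genes below background on both arrays have no value. With 1 array per time point there is no p-value, and 2-fold was the threshold for counting. The number of arrays limits the precision. Alternatives were a shift to each array's 75th percentile, no normalization, normexp (offset 50) on the median spot signal before quantile normalization, quantile normalization without the Day2 array, the log2 table of the authors, the scanner's second detection flag, keeping dim probes, probes detected on both arrays, the mean over a gene's probes, and thresholds of 1.5-fold and 4-fold.

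The genes named are isoform pairs, complex II, the 10 largest and 5 smallest ranges, genes changed 2-fold from ES to Day7, and genes not detected on every array. Others are named as extremes of their group, and these were picked after their values were seen. The members and gene lists were chosen with earlier results of these data known. Besides the lists in the report, markers of neural progenitors (5 of 7 at least 2-fold higher and 2 lower from ES to Day7), interneurons (2 of 5 higher, none lower), glia (2 of 5 higher, 1 lower), and mesoderm or endoderm (none of 4 higher, 3 lower) were read. Of the genes counted, 1 is not reported individually here.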

Additional observations from a re-analysis of the deposited data

How the results depend on the processing

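No paired analysis was possible because there was a single array for every time point, and for the same reason no replicate could be left out. A slide block could not be fitted, since Day7 alone lay on another slide. The median change of the set relative to all genes depended on the scaling. From ES to Day2 it was 0.06 after quantile normalization and -0.33 after the 75th percentile shift, without normalization (-0.33) and in the deposited values (-0.33). From Day2 to Day3 it was -0.10, and -0.24 among genes well above background on both arrays. From Day4 to Day7 it was 0.47, against 0.25 with the 75th percentile shift, 0.26 without normalization and 0.25 in the deposited values. From ES to Day7 it was 0.24, against -0.20 with each of these 3 settings. From Day3 to Day4 no alternative moved it by more than the spread between spots (0.11).

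The number of genes at least 2-fold higher from ES to Day7 was 3, and 0 with the 75th percentile shift, without normalization and in the deposited values. At 1.5-fold it was 23 and at 4-fold 0. The number lower was 5, and 18 with the 75th percentile shift and in the deposited values, 10 at 1.5-fold and 1 at 4-fold. The count of genes well above background on all 5 arrays was 91, and 92 with the other flag. A named gene was counted as unchanged by a setting if it stayed at least 2-fold in the same direction. A gene under 2-fold was so counted if it stayed under 2-fold and moved by less than that spread. Of 33 named genes with a change from ES to Day7, 6 were unchanged with the 75th percentile shift and 7 without normalization. The number was 25 with normexp, 32 without the Day2 array and 29 with the mean over probes. None that changed 2-fold changed direction under these settings.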

Other observations

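Of 15 genes that govern mitochondrial biogenesis and mitochondrial DNA, 7 were at least 2-fold lower and 1 higher on Day7 than on ES (background 24.4% and 24.8%), with a median change of -0.97, and relative to all genes the median was -0.91 with quantile normalization and between -0.67 and -0.92 with the other 4 scalings. Gabpa, the DNA-binding subunit of nuclear respiratory factor 2, was 11.60 on ES, 11.41, 10.82 and 10.71 on Day2, Day3 and Day4, and 9.79 on Day7. Polg2, the accessory subunit of the mitochondrial DNA polymerase, ran from 11.28 to 9.39, the helicase Twnk from 9.63 to 8.09, and Tfb1m, an rRNA methyltransferase of mitochondria, from 12.94 to 11.62. Tfam, which packs mitochondrial DNA, was 13.03 on ES, 13.39 on Day2 and 11.97 on Day7. Nrf1 itself was even, between 11.20 on ES and 11.87 on Day4.

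The coactivators of the PGC-1 family took opposite courses. Ppargc1a was not well above background on ES, read 6.28 on Day2, 6.16 on Day4 and 9.62 on Day7, and its change from ES to Day7 was at least 5.07. Ppargc1b went from 7.05 on ES to 5.74 on Day7 and Pprc1 from 10.16 to 8.95. The same directions were seen with all 5 scalings.

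Of 12 citric acid cycle genes, 2 were at least 2-fold lower on Day7 than on ES and none higher, both smaller shares than the background of 24.4% and 24.8%. The 2 genes were Idh3a, the catalytic alpha subunit of NAD-dependent isocitrate dehydrogenase, with 13.67, 13.74, 13.11, 12.71 and 12.47 in the order of the arrays, and Suclg2, the GTP-specific subunit of succinyl-CoA ligase, with 11.12 on ES and 9.75 on Day7. Idh3b and Idh3g, the partners of Idh3a, differed by 0.56 and 0.37, but this depended on the scaling. The median of the list was 0.28 with quantile normalization and -0.45 with the 75th percentile shift.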
